A study of Mus musculus with 8 samples.

Results

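The macrophage genes followed here are Adgre1, Csf1r, Cd68, C1qa, Mertk, Mrc1, Cd163, Lyve1, Folr2 and Timd4, which are widely used as markers of tissue macrophages. They were taken as a list of names, with no threshold on their values, and all 10 were found among the 39056 genes counted and among the 14796 genes that passed the filter on low counts. The hearts came from male mice at 3 months of age. In 4 of them (HVCN1 null hearts 1 to 4, genotype HVCN1-/-) the gene of the voltage-gated proton channel HVCN1, also called Hv1, was deleted, and 4 (WT hearts 5 to 8) were on the C57BL/6 background without the deletion. The mice are called null with no Cre, promoter or further treatment named, and 1 poly-A library was made per heart. Neither the labels nor the methods say whether the WT mice were littermates or which chambers of the heart were taken.

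Cardiac macrophages sit between the muscle cells and clear debris, dying cells and haemoglobin. Many descend from embryonic precursors and renew themselves in place, while others arrive from the blood as monocytes. Their survival depends on the receptor encoded by Csf1r, which binds the growth factors Csf1 and Il34. Cells that have long been resident in the mouse heart are commonly recognised by Timd4, Lyve1 and Folr2 together with the scavenger receptors Mrc1 and Cd163, and recruited cells by Ccr2. Adgre1, Csf1r, Cd68, C1qa and Mertk are shared more broadly among macrophages. HVCN1 itself is best known from phagocytes, where it lets protons out during the oxidative burst, so the comparison of HVCN1 null and WT hearts asks whether the transcripts of the heart's own phagocytes differ.

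Hvcn1 (chromosome 5, 122206804 to 122242297, GRCm38) gave 16 counts in the HVCN1 null hearts and 318 in the WT hearts. Its log2 fold change, here always HVCN1 null over WT, stood at -4.20 (standard error 0.38, edgeR adjusted p = 0.000363), and the groups did not overlap. Total counts were 25851255 to 36396297 per HVCN1 null heart and 32595114 to 38874640 per WT heart. The tissue label was checked on 6 cardiomyocyte markers, which summed to 51619 to 60391 CPM (counts scaled to the size of each library) in WT and 47237 to 61112 CPM in HVCN1 null hearts. The hearts were not alike in atrial content. Myl7, the atrial myosin light chain, stood at 577 to 1185 CPM in WT hearts 5 and 7 and at 608 and 631 in HVCN1 null hearts 3 and 2. It was at 33.5 CPM or less in the remaining 4 hearts, 2 of each genotype. Among these, HVCN1 null hearts 1 and 4 were at 17.0 and 33.5 CPM and WT hearts 6 and 8 at 0.618 and 0.169 CPM. Results below are therefore also given within the hearts of high and of low Myl7.

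All 10 macrophage genes had a lower mean in HVCN1 null hearts, by log2 fold changes, also called log2 differences, of -0.52 (Adgre1) to -0.11 (Folr2), and none of these differences passed the test over all genes. No member was a differentially expressed gene (DEG, adjusted p under 0.05), against 1.14% of the 14796 tested genes in either direction. The log2 fold change was below 0 for 10 of 10 members and for 52.7% of all tested genes, and the median was -0.30 for the members and -0.01 for all tested genes. The 10 genes are expressed largely by the same cells and are not independent measurements, so this count says less than 10 separate genes would. At an unadjusted edgeR p under 0.05, 2 members were lower, against 5.52% of all tested genes. No member had all 4 HVCN1 null hearts below all 4 WT hearts, which 3.45% of all tested genes did. In bulk heart RNA fewer macrophages and less of these RNAs per macrophage cannot be told apart.

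**Figure D1:**
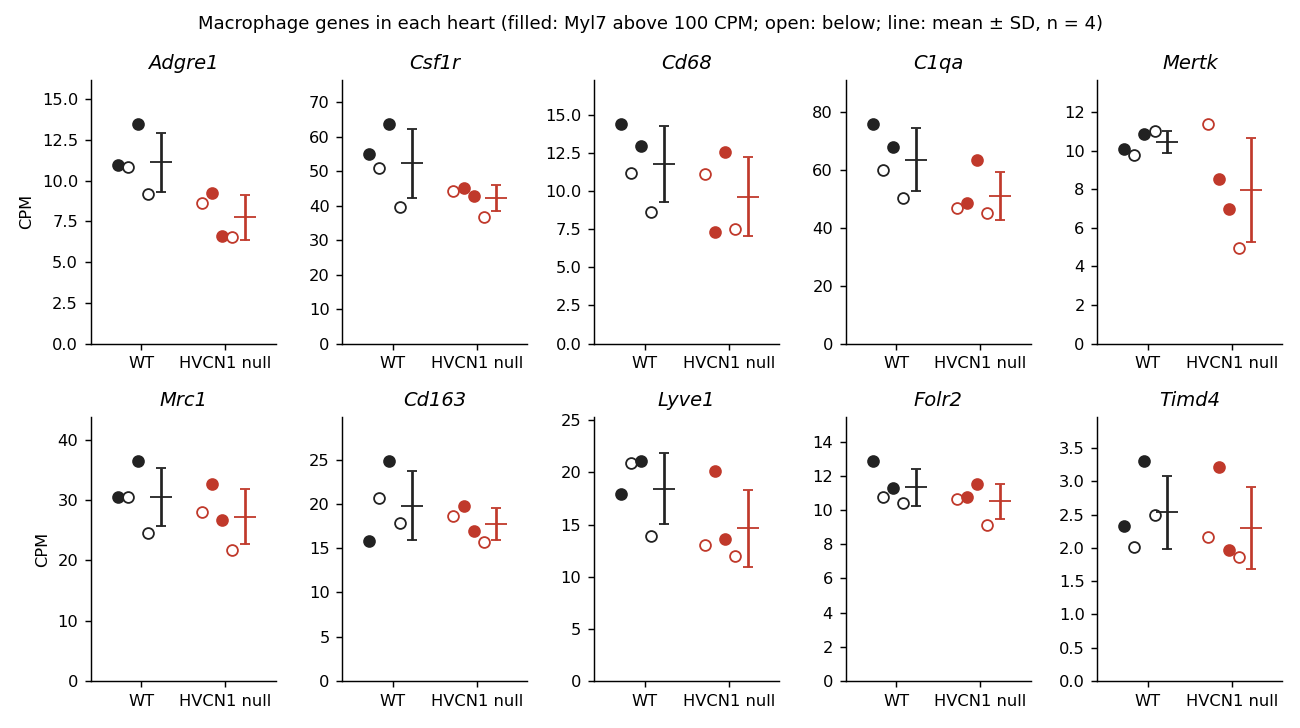
CPM (scaled by TMM, y axis from 0) of the 10 macrophage genes in each of the 4 WT hearts (black) and 4 HVCN1 null hearts (red), in order of heart number. Filled points are hearts with Myl7 above 100 CPM, open points hearts below it, and the lines give the mean ± SD. The groups overlap for every gene, for Adgre1 only through HVCN1 null heart 2 (9.25) and WT heart 8 (9.18).

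Adgre1 (ENSMUSG00000004730, chromosome 17, 57358691 to 57483527) encodes the adhesion receptor F4/80, the surface antigen by which mouse macrophages are usually recognised. HVCN1 null hearts 1 to 4 held it at 8.61, 9.25, 6.61 and 6.52 CPM, and WT hearts 5 to 8 at 11.0, 10.9, 13.5 and 9.18 CPM. The groups overlapped by a single pair of hearts, since HVCN1 null heart 2 lay just above WT heart 8. The means were 7.75 ± 1.39 and 11.1 ± 1.79 CPM (SD, n = 4 each), a difference of -30.4%. This was the largest log2 difference of the 10 genes, at -0.52 (95% interval -0.87 to -0.17, edgeR adjusted p = 0.202). The exact permutation p for Adgre1, two-sided over all 70 ways to assign the hearts and never below 0.0286, was 0.0571.

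Csf1r (ENSMUSG00000024621, chromosome 18, 61100598 to 61132149) encodes the receptor tyrosine kinase for Csf1 and Il34. HVCN1 null hearts 1 to 4 gave 44.4, 45.2, 42.9 and 36.8 CPM for it, and WT hearts 5 to 8 gave 55.1, 50.9, 63.8 and 39.6 CPM. Of the WT hearts 3 lay above every HVCN1 null heart, while WT heart 8 lay among them. The HVCN1 null mean was 42.3 ± 3.83 and the WT mean 52.3 ± 10.1 CPM (SD, n = 4 each), a log2 difference of -0.31 (95% interval -0.61 to -0.0024, edgeR adjusted p = 0.448). Csf1r shares 873 exonic bases with Hmgxb3 on the opposite strand, and it is not given in the sources used here whether the counting used strand. Hmgxb3 itself was at 23.4 ± 1.47 CPM in HVCN1 null and 22.8 ± 0.947 CPM (SD, n = 4 each) in WT hearts.

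Cd68 (ENSMUSG00000018774, chromosome 11, 69664213 to 69666153) encodes macrosialin, a glycoprotein of the lysosome and endosome membrane of phagocytes. The HVCN1 null hearts gave 11.1, 7.32, 12.6 and 7.54 CPM and the WT hearts 14.4, 11.2, 12.98 and 8.64 CPM. HVCN1 null hearts 2 and 4 lay below every WT heart and HVCN1 null hearts 1 and 3 lay inside the WT range. The log2 difference was -0.30 (95% interval -0.76 to 0.16, edgeR adjusted p = 0.715). C1qa (ENSMUSG00000036887, chromosome 4, 136895917 to 136898803) encodes the A chain of C1q, which opens the classical complement pathway and is made in large amounts by tissue macrophages. Its levels were 46.7, 48.7, 63.4 and 45.1 CPM in HVCN1 null hearts and 75.9, 60.1, 67.8 and 50.2 CPM in WT hearts. HVCN1 null hearts 1, 2 and 4 lay below all WT hearts, and HVCN1 null heart 3 lay above WT hearts 6 and 8. The log2 difference was -0.32 (95% interval -0.64 to 0.0077, edgeR adjusted p = 0.471).

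Mertk and Timd4 both serve the uptake of dying cells, Mertk as a receptor kinase that recognises phosphatidylserine through the bridging proteins Gas6 and protein S, and Timd4 as a receptor that binds phosphatidylserine itself. Mertk (ENSMUSG00000014361, chromosome 2, 128698956 to 128802894) was at 11.4, 8.53, 6.99 and 4.97 CPM in HVCN1 null hearts and at 10.1, 9.79, 10.9 and 11.0 CPM in WT hearts. HVCN1 null hearts 2 to 4 lay below every WT heart, whereas HVCN1 null heart 1 was the highest of all 8. The spread was wider in HVCN1 null hearts (mean 7.97, SD 2.71) than in WT hearts (mean 10.4, SD 0.583, n = 4 each), and this difference in spread was not tested. The log2 difference of Mertk was -0.39 (95% interval -0.85 to 0.08, edgeR adjusted p = 0.570). Timd4 (ENSMUSG00000055546, chromosome 11, 46810800 to 46844332) was the member with the fewest reads, 52 to 125 counts per heart. It gave 2.16, 3.21, 1.97 and 1.86 CPM in HVCN1 null and 2.33, 2.01, 3.30 and 2.50 CPM in WT hearts. The highest hearts were 1 of each genotype, HVCN1 null heart 2 and WT heart 7, which are also the hearts with the most Bmp10, an atrial growth factor (418 and 573 CPM), whose part in this was not tested. The log2 difference of Timd4 was -0.14 (95% interval -0.65 to 0.38, edgeR adjusted p = 0.921), an interval that leaves room for a change of either direction.

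The receptors Mrc1, Cd163 and Folr2 had log2 differences of -0.16 to -0.11. Mrc1 (ENSMUSG00000026712, chromosome 2, 14229392 to 14332057), the mannose receptor CD206, stood at 28.0, 32.7, 26.7 and 21.7 CPM in HVCN1 null hearts and at 30.5, 30.6, 36.5 and 24.6 CPM in WT hearts. HVCN1 null heart 2 exceeded 3 of the WT hearts, and the log2 difference was -0.16 (95% interval -0.48 to 0.15, edgeR adjusted p = 0.808). Cd163 (ENSMUSG00000008845, chromosome 6, 124304656 to 124330527) encodes the receptor that takes up haemoglobin bound to haptoglobin. The HVCN1 null hearts had 18.6, 19.7, 16.9 and 15.7 CPM of it and the WT hearts 15.8, 20.7, 24.8 and 17.9 CPM. WT heart 5 was the lowest of its group in Cd163, next to HVCN1 null heart 4, and the log2 difference was -0.16 (95% interval -0.47 to 0.15, edgeR adjusted p = 0.808). Folr2 (ENSMUSG00000032725, chromosome 7, 101839988 to 101857194), folate receptor beta, gave 10.7, 10.7, 11.5 and 9.12 CPM in HVCN1 null hearts and 12.9, 10.7, 11.3 and 10.4 CPM in WT hearts. HVCN1 null hearts 1 to 3 lay inside the WT range, and the log2 difference of -0.11 was the smallest of the 10 genes (95% interval -0.36 to 0.13, edgeR adjusted p = 0.844). Folr2 shares 975 exonic bases with the antisense gene Gm10602, which was at 0.926 ± 0.337 CPM in HVCN1 null and 1.83 ± 0.353 CPM (SD, n = 4 each) in WT hearts, so reads of the pair may have been counted to either.

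Lyve1 (ENSMUSG00000030787, chromosome 7, 110850607 to 110863239) encodes a hyaluronan receptor that is shared by resident macrophages and lymphatic endothelium. It stood at 12.99, 20.1, 13.6 and 11.9 CPM in HVCN1 null hearts and at 17.9, 20.9, 21.1 and 13.9 CPM in WT hearts. HVCN1 null hearts 1, 3 and 4 were below all WT hearts, and HVCN1 null heart 2 was among the higher WT hearts. The log2 difference was -0.33 (95% interval -0.74 to 0.07, edgeR adjusted p = 0.582). Of 6 other lymphatic endothelial genes 4 were lower and 2 higher, none of them a DEG, with a median log2 fold change of -0.03. Their sum was 125 to 157 CPM per HVCN1 null heart and 131 to 159 CPM per WT heart, so the ranges nearly coincided. Prox1 (65.7 to 99.9 CPM per heart) and Flt4 (27.0 to 39.1 CPM) made up most of this sum. The sum therefore mainly follows Prox1 and Flt4, and which cells their reads came from was not tested. Ccl21a and Mmrn1 had log2 differences of -0.36 and -0.30 (edgeR adjusted p = 0.442 and 0.797), near that of Lyve1. Prox1, Pdpn, Flt4 and Reln lay between -0.04 and 0.05. The share of Lyve1 reads that came from each cell type cannot be told apart in whole-heart RNA.

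**Figure D2:**
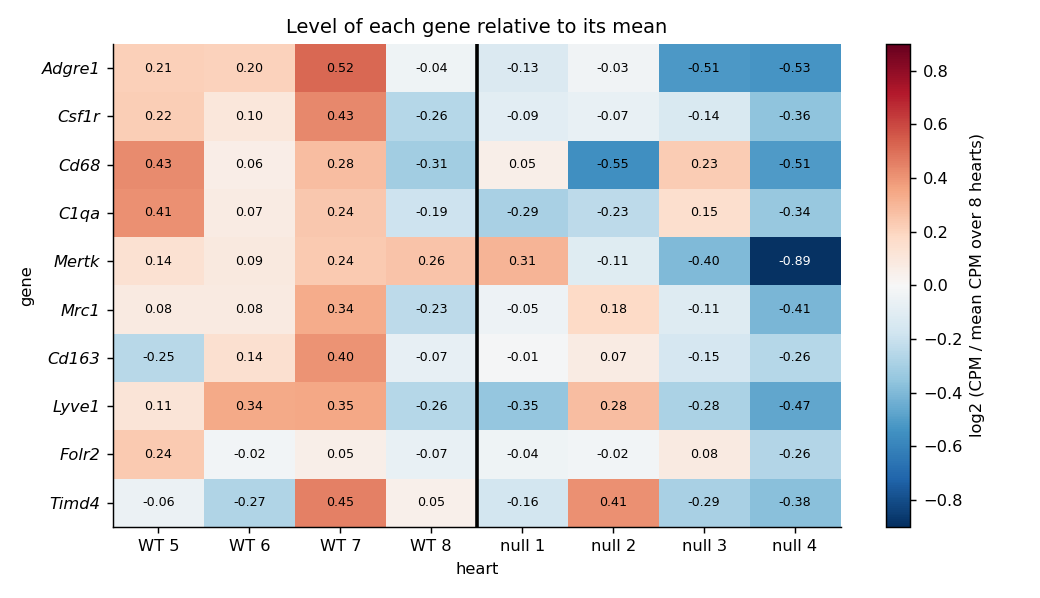
Level of each macrophage gene (rows of the map) in each heart (columns, WT hearts left of the line, HVCN1 null hearts right), as log2 of its CPM over its mean CPM in the 8 hearts. HVCN1 null heart 4 is below the mean for all 10 genes, down to -0.89 for Mertk, and WT heart 7 is above it for all 10, up to 0.52 for Adgre1.

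Most pairs of members varied together from heart to heart, and a few hearts held many of the highest and lowest values. HVCN1 null heart 4 had the lowest value of all 8 hearts in 9 of the 10 genes, Cd68 being the exception, and WT heart 7 the highest in 6. Nearest to the other group were WT heart 8, the lowest WT heart in 7 genes, and HVCN1 null heart 2, the highest HVCN1 null heart in 6. With 1 heart left out, the median log2 fold change of the members ran from -0.38 without WT heart 8 to -0.21 without HVCN1 null heart 4. It was -0.22 without WT heart 7 and -0.30 with all hearts. Summed over the 10 genes HVCN1 null hearts 1 to 4 reached 195, 206, 203 and 161 CPM, and WT hearts 5 to 8 reached 246, 228, 266 and 188 CPM. WT heart 8 thus held less RNA of these genes than 3 of the HVCN1 null hearts. Over the 8 hearts the 45 pairs of members had Pearson's r of -0.06 to 0.89, with a median of 0.60. With the group means removed r ran from -0.20 to 0.91, with a median of 0.51, and 39 of the 45 pairs were positive. No correlation was computed for each genotype alone. Csf1r followed the mean of the other 9 genes most closely (r = 0.946 over 8 hearts), then Mrc1 (0.916) and Adgre1 (0.883), and Timd4 least (0.558). With the group means removed Mrc1 came first (0.963), then Csf1r (0.915), and Cd68 last (0.409). These correlations are descriptions, since all genes of a heart share 1 library and its scaling.

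The broadly shared macrophage genes and the resident set were set side by side. The 5 genes Adgre1, Csf1r, Cd68, C1qa and Mertk had a median log2 fold change of -0.32 and summed to 119 ± 13.2 CPM in HVCN1 null and 149 ± 23.6 CPM (SD, n = 4 each) in WT hearts. The 5 genes Mrc1, Cd163, Lyve1, Folr2 and Timd4 had a median of -0.16 and summed to 72.5 ± 10.8 and 82.7 ± 11.6 CPM. The ratio of the resident sum to the broad sum came to 0.592, 0.727, 0.534 and 0.598 for HVCN1 null hearts 1 to 4, and to 0.477, 0.595, 0.575 and 0.584 for WT hearts 5 to 8. The ratios overlapped, with HVCN1 null heart 2 alone above and WT heart 5 alone below the remaining hearts, and the difference between the sets was not tested.

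Per kilobase of exon, the order of the genes was the same in both genotypes. In WT hearts C1qa led at 61.1 ± 10.6 RPKM, that is CPM per kilobase of exon (SD, n = 4), far above every other member. Cd68 (9.39 ± 1.98), Csf1r (9.06 ± 1.74), Folr2 (7.33 ± 0.702) and Lyve1 (6.32 ± 1.16) followed, and each overlapped the next in its range over the WT hearts. Mrc1 (4.80 ± 0.761), Cd163 (3.63 ± 0.715) and Adgre1 (3.44 ± 0.551) came next, each overlapping the gene before it in this order. Mertk (2.41 ± 0.134) lay below Adgre1 in every WT heart and above Timd4 (1.17 ± 0.254) in every WT heart. In HVCN1 null hearts the same scale ran from 49.0 ± 8.10 for C1qa to 1.06 ± 0.284 for Timd4.

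**Figure D3:**
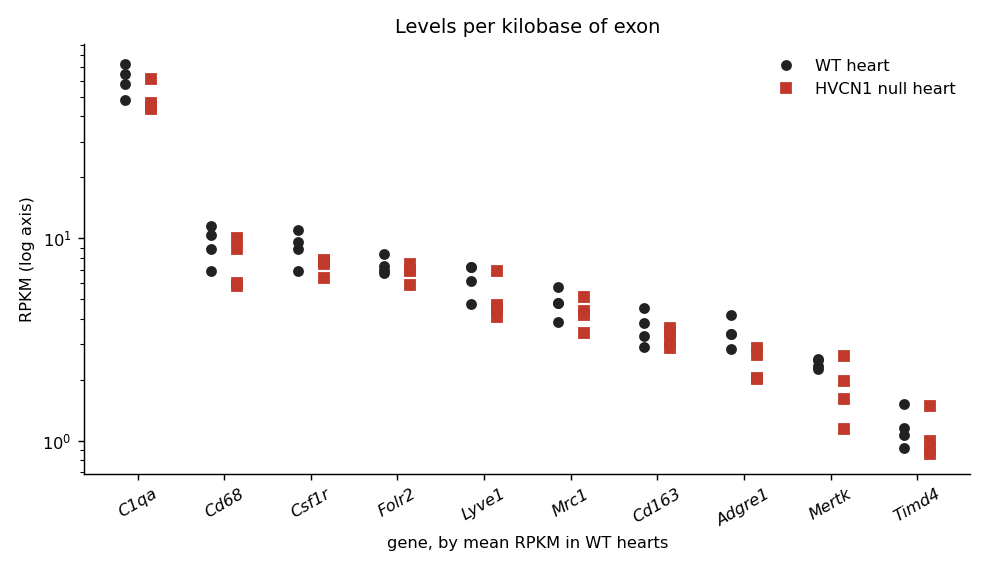
RPKM (CPM per kilobase of exon, log axis) of each macrophage gene in the 4 WT hearts (circles) and the 4 HVCN1 null hearts (squares), ordered by the WT mean. C1qa stands apart at the top with a WT mean of 61.1 and Timd4 is the lowest at 1.17, and the genes from Cd68 to Adgre1 form a graded series in which neighbours overlap.

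Within the 4 hearts of high Myl7 the means of all 10 members were lower in the 2 HVCN1 null hearts than in the 2 WT hearts, and the same held within the 4 hearts of low Myl7. The log2 ratio of the means of Adgre1 was -0.63 in hearts of high and -0.41 in hearts of low Myl7. For Csf1r it was -0.43 and -0.16, and for Cd68 it was -0.46 and -0.09. Mrc1 gave -0.17 and -0.15 and Cd163 gave -0.15 and -0.17, so these 2 differed little between the subsets. In hearts of high Myl7 the HVCN1 null hearts lay wholly below the WT hearts for 5 members, Adgre1, Csf1r, Cd68, C1qa and Mertk, and in hearts of low Myl7 for 3 members, Adgre1, C1qa and Lyve1. The same, with HVCN1 null lower, held for 16.5% and 21.7% of all tested genes. These subsets of 2 hearts against 2 were chosen after seeing the data, and no test was run within them. In the low subset both HVCN1 null hearts held more Myl7 than both WT hearts, so the genotypes were not matched in this marker. Atrial markers as a whole, 4 of 4 lower with a median log2 fold change of -0.44, summed to 308 to 4423 CPM in HVCN1 null and 84.8 to 8164 CPM in WT hearts. With an atrial score as a covariate all 10 members were lower, with a median of -0.37 and no DEG.

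Leaving out 1 heart made no member a DEG but moved several of the smaller differences. Without WT heart 7 the log2 difference of Cd163 was -0.03, that of Mrc1 -0.06, that of Csf1r -0.19 and that of Timd4 0.023, the only change of sign. Mertk ran from -0.61 without HVCN1 null heart 1 to -0.22 without HVCN1 null heart 4, and Cd68 from -0.45 without HVCN1 null heart 3 to -0.18 without WT heart 5, and it was at -0.19 and -0.20 without HVCN1 null hearts 2 and 4. Without HVCN1 null heart 4 Mrc1 was at -0.07, Cd163 at -0.11, Folr2 and Timd4 at -0.05. Without HVCN1 null heart 2 Lyve1 was at -0.52, Timd4 at -0.34 and Mrc1 at -0.26. Without WT heart 5 Folr2 was at -0.04 and Cd163 at -0.25, without WT heart 8 Mrc1 was at -0.25, and Timd4 was at -0.07 without HVCN1 null heart 3 and at -0.23 without WT heart 6. Adgre1 stayed between -0.62 and -0.41 over these 8 fits, with an edgeR adjusted p of 0.160 to 0.403. Its groups did not overlap without HVCN1 null heart 2 or without WT heart 8. With a heart left out there are fewer hearts to separate, and the share over all tested genes was not computed there.

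Other macrophage genes were counted from a list of 18 that are broadly expressed in macrophages, of which 17 were tested. Of these 16 were lower and 1 higher, with a median log2 fold change of -0.39. Like the members, these genes are expressed largely by the same cells, so such counts say less than 17 separate genes would. Mpeg1 was the only DEG among them, against 1.14% of all tested genes, and 4 of the 17 had groups without overlap, all lower, against 3.45%. Mpeg1 (ENSMUSG00000046805, chromosome 19, 12460779 to 12465283) encodes perforin-2, a pore-forming protein with which macrophages attack bacteria they have taken up. It stood at 8.04, 6.87, 7.25 and 7.43 CPM in HVCN1 null hearts and at 13.5, 13.2, 15.3 and 11.3 CPM in WT hearts. Every HVCN1 null heart lay below every WT heart, and the spread among HVCN1 null hearts was small. The means were 7.40 ± 0.488 and 13.3 ± 1.60 CPM (SD, n = 4 each) and the log2 fold change was -0.85 (standard error 0.11, edgeR adjusted p = 0.00587). Mpeg1 was a DEG under all 18 alternative settings. Cx3cr1, the fractalkine receptor, Lyz2, a lysozyme, and Ctss, the protease cathepsin S, were the others without overlap (named after their values were seen). Cx3cr1 was at 3.09 ± 0.697 and 5.86 ± 1.15 CPM, with a log2 difference of -0.92 (edgeR adjusted p = 0.0561). C1qb and C1qc, the partners of C1qa in the C1q molecule, lay at -0.25 and -0.32 on the same scale, close to the -0.32 of C1qa, with overlapping groups.

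**Figure D4:**
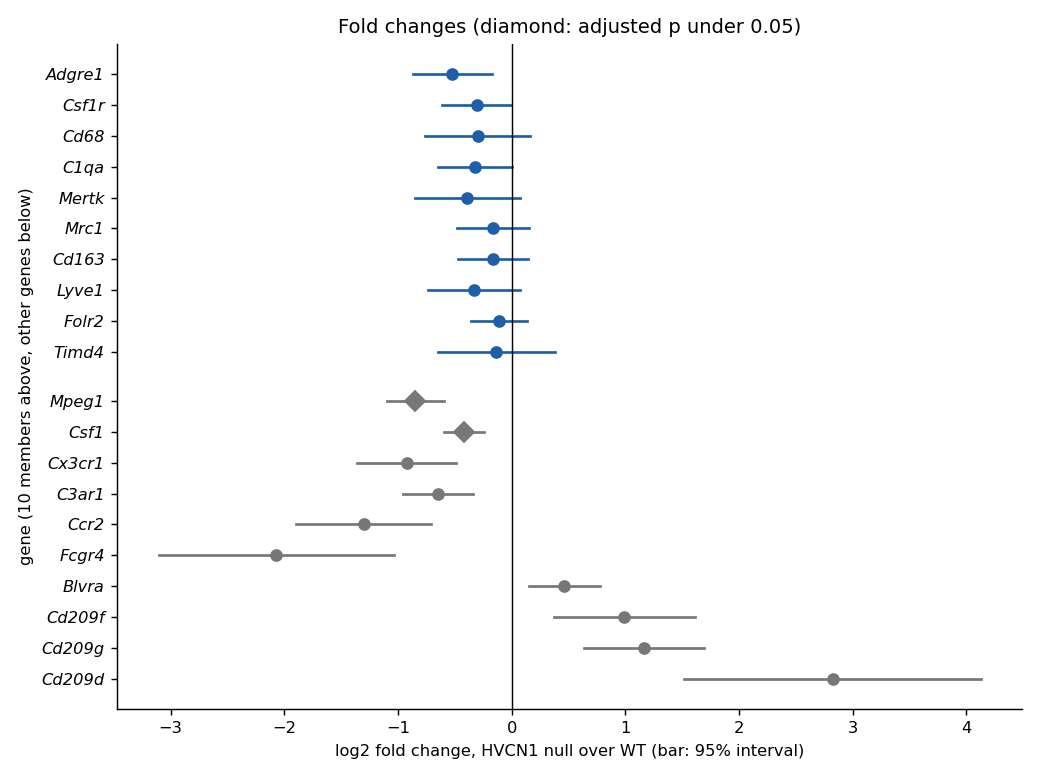
Log2 fold change (HVCN1 null over WT, x axis) with its 95% interval for the 10 macrophage genes (blue) and 10 further macrophage and pathway genes (grey), 2 of which, Cx3cr1 and Cd209f, were added after their values were seen. Diamonds are DEGs. The members lie between -0.52 and -0.11, and the DEGs Mpeg1 and Csf1 lie at -0.85 and -0.42.

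Other genes of resident macrophages were divided in direction. Of 17 listed and tested, 10 were lower and 7 higher, with a median log2 fold change of -0.04. Some were at high levels for whole-heart RNA, such as Gas6 at a mean of 175 CPM in HVCN1 null and 173 CPM in WT hearts, above every member. Which cells the reads of this list came from was not tested. Groups without overlap were seen for 3 genes, all higher in HVCN1 null hearts, against 3.6% of all tested genes in that direction. All 3 belong to the Cd209 group of C-type lectins, relatives of human DC-SIGN that bind sugars on microbes and that lie near each other on chromosome 8. Cd209d rested on few reads, 72 counts in HVCN1 null hearts and 10 in WT hearts, with WT heart 6 at 0. It passed the filter on low counts only through its HVCN1 null hearts, so its lack of overlap adds no support to this count. It was at 0.390, 0.882, 0.304 and 0.508 CPM in HVCN1 null hearts and at most 0.106 CPM in a WT heart (log2 difference 2.82, standard error 0.59, edgeR adjusted p = 0.0544). Cd209g was at 1.17, 1.60, 1.86 and 1.44 CPM in HVCN1 null hearts and at 0.784, 0.587, 0.582 and 0.742 CPM in WT hearts (log2 difference 1.17, standard error 0.24, edgeR adjusted p = 0.0508). Cd209f, named after its values were seen, was at 3.20 ± 0.642 and 1.61 ± 0.564 CPM (log2 difference 0.99, edgeR adjusted p = 0.163). None of the 3 was a DEG. DESeq2 and the likelihood ratio test of edgeR called all 3, and among the 18 alternatives Cd209g was called in 5 and Cd209d in 4 of the 17 that tested it. These paralogs resemble each other in sequence, so reads may be split among them or lost.

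Of 13 genes of monocytes and recruited macrophages, 11 were tested, 9 of them lower, with a median log2 fold change of -0.55 and no DEG. Ccr2, the receptor that draws monocytes out of the bone marrow and into tissue, was at 1.05, 1.04, 1.25 and 1.84 CPM in HVCN1 null hearts and at 3.69, 2.25, 4.23 and 2.60 CPM in WT hearts. All HVCN1 null hearts lay below all WT hearts, with a log2 difference of -1.30 (standard error 0.27, edgeR adjusted p = 0.0527). Fcgr4, a receptor for the constant part of IgG, gave 31 counts in HVCN1 null and 147 in WT hearts. Its groups did not overlap either, and its log2 difference was -2.07 (standard error 0.47, edgeR adjusted p = 0.0791). Itgax, an integrin subunit named after its values were seen, was the other gene of this list without overlap (log2 difference -0.85, edgeR adjusted p = 0.295). These 3 of 11 genes compare with 3.45% of all tested genes. Fcgr4 passed the filter on low counts through its WT hearts (0.709 to 1.34 CPM), as HVCN1 null hearts 1, 2 and 4 were at 0.240 CPM or less. Its place in this count is thus partly set by the filter. Ccr2 was called in 6 of 18 alternative settings and Fcgr4 in 5 of 17.

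Of the ligands of the receptor encoded by Csf1r, Csf1 was a DEG and Il34 was not, and the difference between them was not tested. Csf1 (ENSMUSG00000014599, chromosome 3, 107741048 to 107760469), the growth factor on which macrophages depend, was at 43.5, 41.7, 41.9 and 40.2 CPM in HVCN1 null hearts and at 53.8, 60.9, 57.4 and 51.8 CPM in WT hearts. The groups were well separated, and the lowest WT heart lay above the highest HVCN1 null heart. Csf1 fell, with means of 41.8 ± 1.35 and 56.0 ± 4.02 CPM (SD, n = 4 each) and a log2 fold change of -0.42 ± 0.08 (SE, edgeR adjusted p = 0.0380). The call was lost when any 1 of the 8 hearts was left out, with library sizes not scaled and with the erythroid genes as a covariate, where the edgeR adjusted p reached at most 0.133. The log2 fold change of Csf1 stayed between -0.47 and -0.38 over all 18 alternatives. Il34, the second ligand, was at 3.92 ± 1.02 CPM in HVCN1 null and 3.59 ± 0.465 CPM in WT hearts (log2 difference 0.12, edgeR adjusted p = 0.917). Among 13 genes of the Csf1 receptor axis 8 were lower and 5 higher, with a median of -0.06. Spi1, the transcription factor PU.1 that establishes the myeloid lineage, lay at -0.44 (edgeR adjusted p = 0.380).

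The pathways in which single members act held no further DEG. Among genes for the uptake of apoptotic cells, beside Mertk and Timd4, 8 of 15 were lower and 7 higher (median log2 fold change -0.02), and Gas6, the ligand of Mertk, was at 175 ± 18.7 CPM in HVCN1 null and 173 ± 24.0 CPM (SD, n = 4 each) in WT hearts. In the classical complement list, beside C1qa, 8 of 10 were lower (median -0.17). C3ar1, the receptor of the complement fragment C3a, had groups without overlap and a log2 difference of -0.65 (standard error 0.14, edgeR adjusted p = 0.0603). Of 8 tested genes for the clearance of haemoglobin and haem, the task of Cd163, 6 were lower (median -0.10). Blvra, which turns biliverdin into bilirubin, was higher in every HVCN1 null heart than in any WT heart, with a log2 difference of 0.46 (standard error 0.14, edgeR adjusted p = 0.205). Of 7 genes of hyaluronan turnover, beside Lyve1, 5 were higher (median 0.27), and of 8 genes of folate uptake and use, beside Folr2, 5 were higher (median 0.04), all with overlapping groups.

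**Figure D5:**
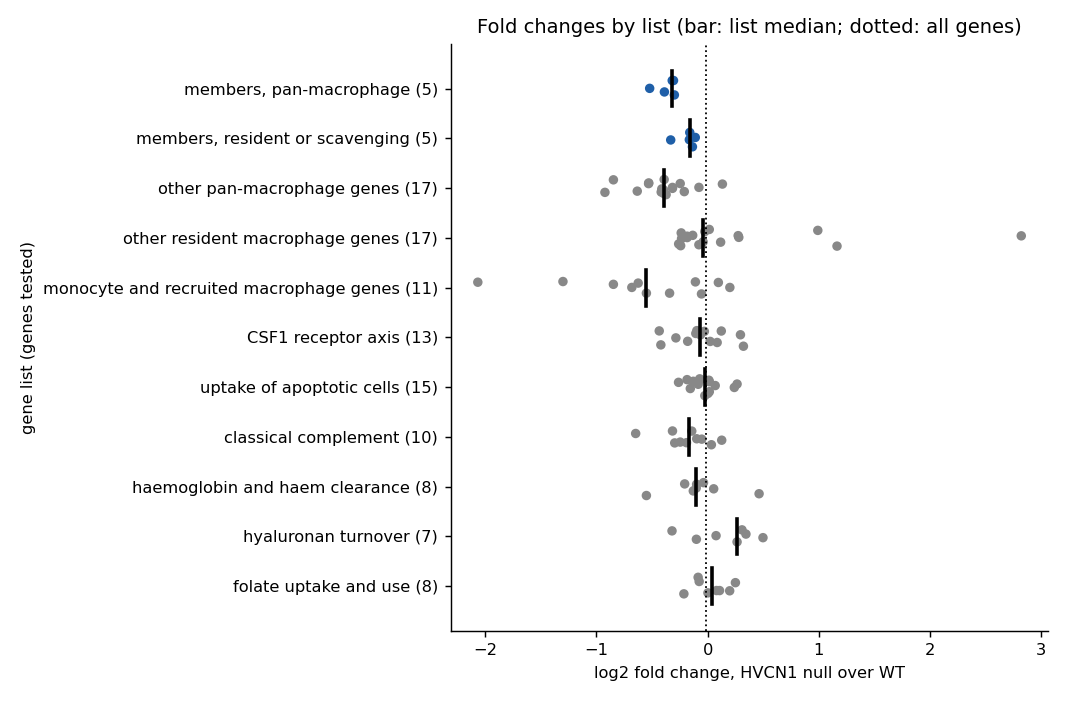
Log2 fold change (HVCN1 null over WT, x axis) of each tested gene in 11 lists (number tested in brackets), with the members in blue, other genes in grey, a bar at each list's median and a dotted line at the median of all 14796 tested genes (-0.01). Other broadly expressed macrophage genes centre on -0.39, monocyte genes on -0.55 and other resident macrophage genes on -0.04. The differences between lists were not tested, and whole-heart RNA does not show which cells the reads came from.

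Markers of other cells are given beside the members, and their part in the members' values was not tested. Blood endothelial markers, 6 genes, summed to 838 to 1088 CPM in HVCN1 null and 888 to 1096 CPM in WT hearts, and 6 fibroblast markers to 687 to 1088 and 738 to 1120 CPM. T cell markers (3.61 to 5.42 and 2.75 to 5.89 CPM, 2 of 6 lower) and B cell markers (2.35 to 19.0 and 4.54 to 13.8 CPM, 1 of 5 lower) did not share the members' direction. Neutrophil markers, 4 of 5 lower, summed to 4.73 to 22.2 CPM and 9.36 to 25.0 CPM. The erythroid markers shared the direction of the members, with a lower HVCN1 null mean for each of the 8 (median log2 fold change -0.99), with sums of 1292 to 8390 CPM and 3018 to 15226 CPM that overlapped widely, and none was a DEG. With the erythroid genes as a covariate, added after seeing the data, all 10 members were still lower and none was a DEG. Adgre1 was then at -0.73, Csf1r at -0.40, Mertk at -0.79, Lyve1 at -0.56, Mrc1 and Cd163 at -0.36, Timd4 at -0.38 and Folr2 at -0.12, while C1qa was at -0.24 and Cd68 at -0.26, nearer to 0 than without it. Adipocyte markers, 4 of 4 lower with a median of -0.69, summed to 319 to 429 and 414 to 549 CPM. Fabp4 made up most of this sum, at 295 to 419 CPM in HVCN1 null and 367 to 548 CPM in WT hearts. The sum therefore mainly follows this gene, and which cells its reads came from was not tested. Adipoq and Plin1, at 11.4 CPM or less in every heart, were highest in WT heart 7 and next in HVCN1 null heart 2. Mast cell markers, 4 of 4 higher with a median of 0.41, held no DEG. Of 6 dendritic cell markers 3 were tested, 2 of them lower, with a median of -0.04 and no DEG. The 3 that did not pass the filter on low counts were Xcr1, Clec9a and Flt3. They gave 4, 20 and 13 counts in HVCN1 null hearts and 21, 54 and 25 in WT hearts. No gene of these lists was at 0 in all 8 hearts.

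Among the other tested genes, the one whose log2 CPM most resembled the mean of the 10 standardised members over the 8 hearts was Eng, which encodes endoglin, a co-receptor for TGF-beta ligands that is abundant on endothelium (Pearson's r = 0.993, Spearman's rho = 0.976). It remained at r = 0.966 without the 2 hearts farthest from the median, HVCN1 null heart 4 and WT heart 7, and at 0.991 with the group means removed. The next were Calhm5, Cysltr1, Icam1, Zfp354c, Hid1, Kif5c, Serpinb8, Frmd4b and Atp10a, with r from 0.969 down to 0.941. Without the same 2 hearts r was between 0.652 and 0.901 for these 9. All 10 were picked as the highest of 14796 tested genes less the members, share their libraries with the members and are given as a likeness only. None was a DEG, and the log2 difference of Eng was -0.28 (edgeR adjusted p = 0.436).

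Promoter sequence was looked at because most pairs of these genes varied together. Another reason was that PU.1, the product of Spi1, binds purine-rich sites built on GAGGAA. RefSeq promoters (GRCm38.p6, from 250 bases before to 50 after the start) matched 6 members, Mrc1, Mertk, Cd163, Folr2, Timd4 and Cd68, with 2 promoters for Folr2. On either strand, GAGGAA was found in 2 of the 6, Cd68 and Mrc1, and in 28.3% of all 32851 promoters. The longer form GAGGAAGT, which contains it, was found in none of the 6 and in 3.2% of all promoters, and TATAAA in none of the 6 and in 13.6%. Below, the matches are in capitals, as GAGGAA on the gene's strand or as its complement TTCCTC, in windows read from 5′ to 3′ on the gene's strand at chr11:69666356-69666415 (Cd68, minus strand), chr2:14229214-14229273 and chr2:14229354-14229413 (Mrc1, plus strand).
Cd68: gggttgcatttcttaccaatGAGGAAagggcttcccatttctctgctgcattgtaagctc
Mrc1, upstream: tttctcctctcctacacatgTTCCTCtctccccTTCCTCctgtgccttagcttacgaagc
Mrc1, at the start: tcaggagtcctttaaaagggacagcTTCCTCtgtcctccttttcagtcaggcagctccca
In Mrc1 the 3 matches begin 180, 167 and 35 bases before the start, and in Cd68 1 begins 225 bases before it and another, outside the window shown, 30 bases after it. A match of these letters is a description of the sequence and no evidence of binding, and Cd68 and Mrc1, the members that hold them, had log2 differences of -0.30 and -0.16.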

How the data were processed

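RNA from 8 mouse hearts (4 HVCN1 null, 4 WT) was sequenced as poly-A libraries with paired reads. According to the methods and labels, the authors aligned reads with STAR and counted them on genes with featureCounts; versions and the strand setting are not given in the sources used here. The deposited values are the counts as made, not normalized. The labels list mm10 and GRCm38, the methods another species, and the gene identifiers are mouse. Positions come from GENCODE on GRCm38, in which 38872 of 39056 identifiers (99.5%) were found.

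CPM values used TMM-scaled library sizes. filterByExpr left 14796 genes, to which the quasi-likelihood test of edgeR 4.0.16 (R 4.3.3) was applied. Its p-values were adjusted over all of these genes by the Benjamini-Hochberg method, and a DEG had an adjusted p under 0.05. Standard errors follow from the log2 fold change and its F statistic. Exact permutation tests are two-sided on mean CPM. Adjusted over all tested genes, none of those was below 0.405. Replicates are separate hearts. RPKM used the merged exon length. The test was tried on simulated counts with known changes. Alternatives were RLE or no scaling, other filters, DESeq2 1.42.0, limma 3.58.1 voom, edgeR's exact and likelihood ratio tests, an atrial covariate, each heart left out and, after seeing the data, an erythroid covariate and subsets by Myl7.

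The members and lists were chosen with earlier results of these data known. From each of the 9 lists the DEGs were named, or otherwise the 2 genes of largest change without overlap. 1 listed gene is not reported here by name, though the counts over its list include it. No batch is given. Plots were made with matplotlib 3.10.9.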

Additional observations from a re-analysis of the deposited data

How the results depend on the processing

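No member was a DEG under any of the 18 alternatives, where the lowest adjusted p was 0.0842, for Adgre1 with DESeq2. All 10 members stayed lower under each alternative except without WT heart 7, where 9 did and Timd4 changed sign. With 1 heart left out its log2 difference ranged from -0.34 to 0.023. Members with groups that did not overlap, 0 of 10 with all hearts, numbered 0 to 2 with 1 heart left out. They numbered 5 among the hearts with Myl7 above 100 CPM and 3 among those below it. All these subsets have fewer hearts to separate, and with 1 heart left out no share over all tested genes was computed. DEGs in the 9 lists, 2 with the settings used, numbered 1 with library sizes not scaled, 5 with no filter on low counts, 11 with DESeq2, 10 with edgeR's likelihood ratio test, 9 with its exact test, 8 with the atrial covariate, 1 with the erythroid covariate and 1 to 3 with 1 heart left out. The cause was not tested. Mpeg1 was among them each time.

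Over all genes the 169 DEGs became 466 with DESeq2, 376 with the likelihood ratio test, 367 with the exact test and 91 with the erythroid covariate. Without HVCN1 null heart 1 or 3 there were 99 and 103, and without WT heart 5, 6 or 8 there were 92, 71 and 104. No paired analysis was possible because no litter or pair is given for the hearts. HVCN1 null hearts are numbered 1 to 4 and WT hearts 5 to 8, so sample number follows genotype. With 4 hearts a group the precision was limited most for Timd4, the member with the fewest counts, whose 95% interval ran from -0.65 to 0.38.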
